A study of Homo sapiens with 30 samples.

Results

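The 10 genes described here are transcription factors and marker genes of epithelial-mesenchymal transition (EMT), in the prostate cancer cell lines V16D and MR49F. They were taken by symbol from the 23710 genes of the count tables: the factors SNAI1, SNAI2, TWIST1, ZEB1 and ZEB2, the epithelial genes CDH1, EPCAM and ESRP1, and the mesenchymal genes CDH2 and VIM. EMT is a programme in which epithelial cells loosen their junctions and take on a motile, mesenchymal form. Factors of the SNAI, TWIST and ZEB families bind E-box sequences, and the SNAI and ZEB factors repress CDH1 and other epithelial genes through them. Prostate luminal cells are epithelial and depend on androgens.

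RNA-seq was performed on 30 libraries in 10 groups of 3. V16D is a castration-resistant derivative of the LNCaP prostate cancer line, and MR49F is an enzalutamide-resistant LNCaP derivative from mice. Each is 1 cell line, so a difference between them compares these lines only. MR49F cells were kept in enzalutamide in routine culture. Both lines were held without the drug before the experiment and were then treated for 24 h.

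In full serum (FS, medium with 10% FBS), V16D or MR49F cells received DMSO vehicle or 10 µM enzalutamide, an antiandrogen, which gave 4 groups. In charcoal-stripped serum (CSS, which is depleted of androgens), MR49F cells were kept for 72 h and then received DMSO and ethanol vehicle, 10 µM enzalutamide, 1 nM DHT (dihydrotestosterone, a natural androgen) or 500 nM JQ-1. JQ-1 was also added to enzalutamide and to DHT at the same doses, which gave 6 groups. JQ-1 inhibits the BET bromodomain proteins, which read acetylated chromatin. The study calls its replicates biological, while the labels describe wells plated in triplicate and do not state separate cultures, so p-values may measure technical spread only.

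The FS libraries held 13170504 to 21154962 reads counted on genes. The CSS libraries held only 982130 to 1813262, since 5.13% to 7.66% of their counted reads lay on genes against 73.0% to 77.8% in FS. Counts and FPKM (fragments per kilobase of transcript, scaled to the mapped fragments of the library, a level per length) are therefore printed side by side for CSS. Replicate 1 of MR49F vehicle in FS stood apart: its counts differed from those of replicates 2 and 3 with a chi-square per degree of freedom of 9.27 and 10.85, against at most 2.66 for any other replicate pair. For members called by counts in FS, results that rest on it are given with and without it. The serum interaction and the gene lists are given only with it. The luminal prostate markers KRT8, KRT18, KLK3, HOXB13 and FOXA1 each averaged at least 1 FPKM in every group, and none of the 3 basal markers did in any group. The 5 neuroendocrine markers, of which SYP and ENO2 averaged at least 1 FPKM in MR49F, summed to 28.2 to 30.4 FPKM with vehicle in CSS, 9.97 to 10.6 FPKM with DHT and 34.3 to 34.8 FPKM with JQ-1, against 6.55 to 10.9 FPKM in FS, and their part in the results was not tested.

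How strand was handled in the counts is not given in the sources used here. From FS to CSS vehicle in MR49F, counts relative to FPKM changed by a median of 1.06 on the log2 scale in 137 genes with over 50% of their exon length under opposite-strand exons, and by -0.34 in 5537 genes with none. The change was over 4-fold in 38.0% and in 0.939% of them. It was -0.63 for CDH1, -0.39 for EPCAM and -0.91 for ESRP1. The part of opposite-strand reads in the CSS count results was not tested.

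The 3 epithelial genes stood far above the other 7 in every sample. CDH1 (chr16:68771195-68869440, hg19), which encodes the junction protein E-cadherin, ranged from 57.5 to 125.9 FPKM over the 30 libraries. EPCAM (chr2:47572297-47614740), an epithelial adhesion molecule, ranged from 45.5 to 88.3 FPKM. ESRP1 (chr8:95653302-95719694), a splicing regulator that maintains epithelial isoforms, ranged from 6.73 to 28.5 FPKM, the widest span of the 3 at 4.23-fold. No EMT factor or mesenchymal gene reached the lowest ESRP1 level except SNAI2 (chr8:49830157-49834299), in the 3 V16D vehicle libraries.

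Among the factors, SNAI1 (chr20:48599517-48605423), which encodes Snail, lay at or above 1 FPKM in 15 libraries and peaked at 2.31 FPKM. TWIST1 (chr7:19060614-19157259), a basic helix-loop-helix factor, reached 1 FPKM in 10 libraries. SNAI2, which encodes Slug, did so in 6. ZEB1 (chr10:31607424-31818742) never exceeded 0.383 FPKM, and ZEB2 (chr2:145121931-145278624) was listed at 0 in 23 libraries and had 3 reads over all 30. CDH2 (chr18:25512843-25757910), which encodes N-cadherin, the cadherin of mesenchymal and neural cells, had 12 reads over all libraries and at most 0.151 FPKM. VIM (chr10:17270240-17279592), the mesenchymal intermediate filament vimentin, reached 1 FPKM in 3 libraries, all V16D. In bulk samples, fewer expressing cells and less RNA per cell cannot be told apart.

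**Figure D1:**
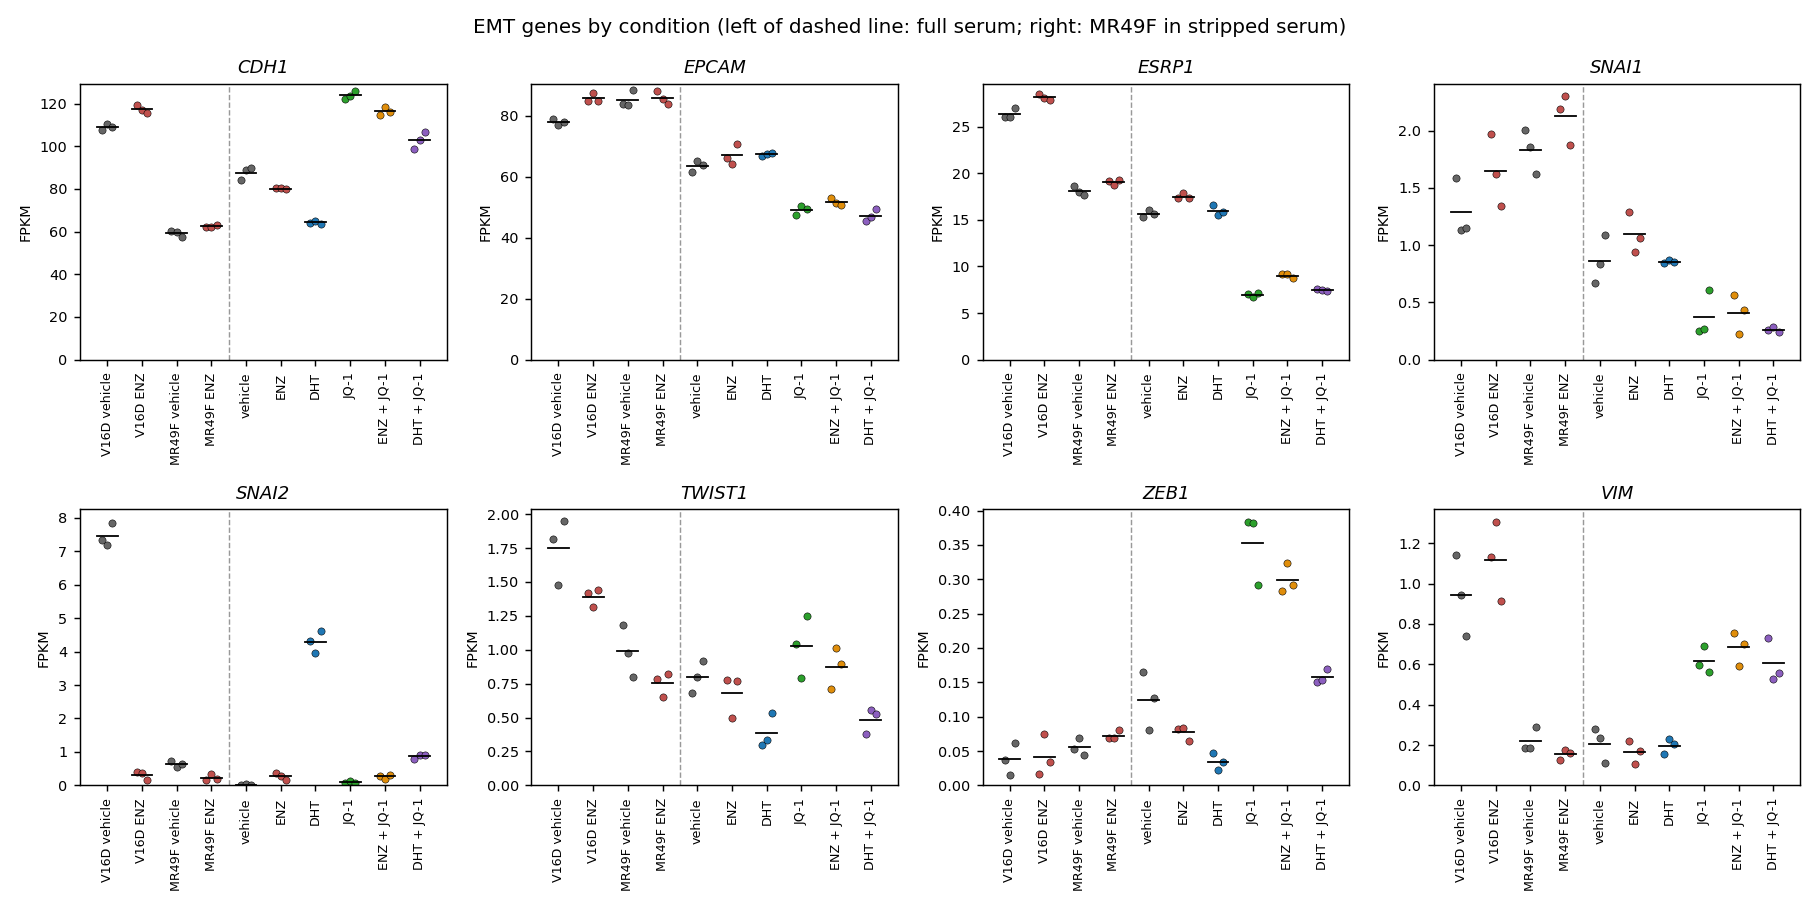
FPKM of 8 of the 10 genes (y axis, linear, from 0, a scale of its own for each gene) in each library, by group on the x axis; points are libraries, bars are group means, the dashed line parts full serum from stripped serum, and CDH2 and ZEB2, which stayed at or under 0.151 FPKM, are not drawn. CDH1 is high and ESRP1 low in the 3 groups with JQ-1, and SNAI2 stands out in V16D vehicle and in DHT.

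The first comparison asked how enzalutamide changed these genes in the parental line V16D. SNAI2 fell 23.6-fold in V16D cells with enzalutamide, by far the strongest change among the 10 genes. It was at 7.34, 7.19 and 7.86 FPKM in the 3 vehicle libraries and at 0.408, 0.36 and 0.158 FPKM with enzalutamide. The groups lay far apart, and the reads behind them were 311, 330 and 346 against 22, 16 and 7. The log2 fold change of the counts was -4.56 (SE 0.142, edgeR quasi-likelihood adjusted p = 2.24e-144). The enzalutamide libraries alone did not meet the count minimum, and with no filter on low counts the edgeR adjusted p was 1.34e-227.

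The epithelial genes in V16D rose by small amounts. CDH1 was at 108, 111 and 109 FPKM with vehicle and at 119, 117 and 116 FPKM with enzalutamide (log2 fold change of counts 0.07, SE 0.0228, edgeR adjusted p = 0.00539), a call that was lost with all groups in one fit (edgeR adjusted p = 0.151). EPCAM went from 78.9, 76.9 and 77.8 FPKM to 84.8, 87.3 and 84.9 FPKM (0.10, SE 0.0293, edgeR adjusted p = 0.0016). The libraries of both genes did not overlap between the groups. ESRP1 was at 26.1, 26 and 27 FPKM against 28.5, 28.1 and 27.8 FPKM (0.07, SE 0.0314, edgeR adjusted p = 0.0489). The ESRP1 call was lost whichever of the 6 libraries was left out, with edgeR adjusted p of 0.0661 to 0.177.

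The other genes measured in V16D did not pass the test. SNAI1 was at 1.59, 1.13 and 1.15 FPKM with vehicle and at 1.97, 1.62 and 1.34 FPKM with enzalutamide, and these ranges overlapped (edgeR adjusted p = 0.116). TWIST1 was at 1.81, 1.48 and 1.95 FPKM against 1.42, 1.32 and 1.44 FPKM, where the groups stood apart by a narrow gap (edgeR adjusted p = 0.0841). VIM was at 1.14, 0.945 and 0.739 FPKM against 1.13, 1.31 and 0.912 FPKM, with overlap (edgeR adjusted p = 0.403). In all, 7 of the 10 genes had enough counts to be tested, of which 3 rose and 1 fell. Over all genes 37.5% were called in this comparison. SNAI1 passed without vehicle replicate 1 (0.50, edgeR adjusted p = 0.0377) or enzalutamide replicate 3 (0.45, edgeR adjusted p = 0.0421), and TWIST1 without vehicle replicate 2 (-0.47, edgeR adjusted p = 0.0411).

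In MR49F cells in FS, enzalutamide lowered SNAI2 from a far lower start. SNAI2 was at 0.723, 0.564 and 0.64 FPKM with vehicle and at 0.15, 0.34 and 0.198 FPKM with enzalutamide, from 27, 27 and 22 reads against 6, 17 and 11. The groups did not overlap. The log2 fold change of counts was -1.48 (SE 0.294, edgeR adjusted p = 0.0114), and without vehicle replicate 1 it was -1.36 (edgeR adjusted p = 0.0015). SNAI2 met the count minimum through the vehicle libraries, and with no filter on low counts the edgeR adjusted p was 0.00309. The call was lost without enzalutamide replicate 1 (-1.30, edgeR adjusted p = 0.0583) or replicate 3 (-1.35, edgeR adjusted p = 0.0784), and with DESeq2 (adjusted p = 0.084).

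Of 6 tested members 1 was called in MR49F, SNAI2, against 8.48% of all genes. CDH1 was at 60.5, 59.8 and 57.5 FPKM with vehicle and at 62.2, 62.4 and 63.2 FPKM with enzalutamide, which did not overlap but did not pass the edgeR test. EPCAM (83.7, 83.6 and 88.3 against 88, 85.4 and 83.8 FPKM) overlapped between the groups. ESRP1 (18.6, 17.9 and 17.6 against 19.2, 18.8 and 19.2 FPKM) did not overlap, and did not pass the test. SNAI1 was at 2.19, 2.31 and 1.88 FPKM with enzalutamide and TWIST1 at 0.784, 0.651 and 0.823 FPKM, both overlapping their vehicle groups. VIM, too low for the count test, was at 0.124, 0.177 and 0.16 FPKM against 0.185, 0.185 and 0.287 FPKM, just apart.

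The difference between the lines was tested as an interaction. The SNAI2 response to enzalutamide was weaker in MR49F than in V16D by 3.08 on the log2 scale (SE 0.432, edgeR adjusted p = 5.77e-05), and by 3.20 without vehicle replicate 1 of MR49F (edgeR adjusted p = 2.35e-10). Of 7 tested members only SNAI2, 1 gene, was called, against 6.95% of all genes. For EPCAM the interaction was -0.15 (edgeR adjusted p = 0.115), which passed the test only without vehicle replicate 1 (-0.13, edgeR adjusted p = 0.0479). KLK3, which encodes prostate-specific antigen and is a standard androgen-induced gene, fell from 509 ± 8.74 to 133 ± 2.35 FPKM (SD, n = 3) in V16D with enzalutamide. In MR49F it was at 971 ± 24.3 and 941 ± 4.36 FPKM.

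**Figure D2:**
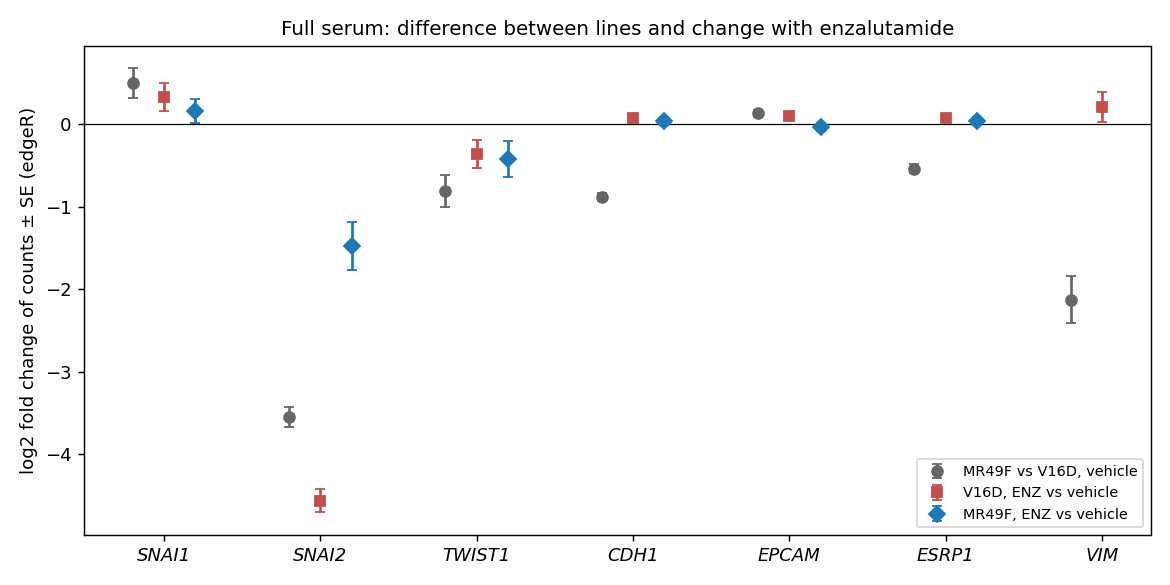
Log2 fold change of counts with its SE (y axis, edgeR) of the 7 genes tested, for MR49F against V16D with vehicle (grey circles), enzalutamide against vehicle in V16D (red squares) and in MR49F (blue diamonds, no value for VIM, which was too low). SNAI2 lies lowest in all 3 comparisons, at -3.54, -4.56 and -1.48.

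Between the lines with vehicle in FS, all 7 tested members differed, against 63.7% of all genes. SNAI2 was 11.7-fold lower in MR49F (0.642 ± 0.0794 against 7.46 ± 0.349 FPKM, SD, n = 3; log2 fold change of counts -3.54, SE 0.123, edgeR adjusted p = 5.55e-10). VIM was at 0.185, 0.185 and 0.287 FPKM in MR49F, against 0.739 to 1.14 FPKM in V16D (-2.13, SE 0.284, edgeR adjusted p = 4.17e-05, and 1.51e-06 with no filter on low counts). TWIST1 was at 1.19, 0.98 and 0.796 FPKM in MR49F, under the 1.48 to 1.95 FPKM of V16D (-0.81, edgeR adjusted p = 0.00323).

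The epithelial genes moved in both directions between the lines. CDH1 was lower in MR49F by 0.88 on the log2 scale (-0.88, edgeR adjusted p = 2.99e-08), and ESRP1 by -0.54 (edgeR adjusted p = 2.27e-06), while EPCAM was higher by 0.13 (edgeR adjusted p = 0.0228). Among the factors only SNAI1 was higher in MR49F, at 2, 1.85 and 1.62 FPKM against 1.13 to 1.59 FPKM (0.50, edgeR adjusted p = 0.027). All 7 differences passed the test without MR49F vehicle replicate 1 as well. SNAI1 and EPCAM did not pass the edgeR test without V16D vehicle replicate 2 (adjusted p = 0.103 and 0.102) or replicate 3 (adjusted p = 0.1 and 0.0925), nor SNAI1 without MR49F vehicle replicate 2 (adjusted p = 0.0676).

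The next comparisons asked what DHT or enzalutamide did in androgen-depleted MR49F cells. SNAI2 was at 0, 0.0472 and 0.022 FPKM with vehicle in CSS and at 4.32, 3.95 and 4.61 FPKM with DHT, so every DHT library stood above 3.9 FPKM and no vehicle library reached 0.05 FPKM. By counts, the 3 vehicle libraries held 0 SNAI2 reads among 4246756, which allows up to 3 reads over the group, and the DHT libraries held 13, 10 and 9. With 3 reads taken as the vehicle level, DHT was 10.6-fold higher by counts, a value that leaves out the spread of the DHT reads. SNAI2 has 3.69% of its exon length under opposite-strand exons. On the log2(FPKM + 0.1) scale, on which fold changes of low genes are understated, the difference was 5.17. SNAI2 met the FPKM minimum only through the DHT libraries, so it was tested with no filter on low values, where it was higher with DHT (limma adjusted p = 2.35e-06).

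Enzalutamide in CSS gave a smaller SNAI2 level. It was at 0.376, 0.274 and 0.172 FPKM, above all 3 vehicle libraries (1.58 on the log2(FPKM + 0.1) scale, limma adjusted p = 0.00535 with no filter), with 2 reads over the 3 libraries. DHT stood above enzalutamide by 3.59 on the same scale (limma adjusted p = 1.8e-06). Here too SNAI2 met the FPKM minimum only through the treated group, and with any of the 3 treated libraries left out it no longer did.

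In FS, enzalutamide lowered SNAI2 in MR49F, and in CSS it was higher than vehicle. The interaction of serum and enzalutamide was 2.79 on the log2(FPKM + 0.1) scale (SE 0.358, limma adjusted p = 0.000229). This difference called 2 of 7 tested members against 27.6% of all genes, and the other was CDH1 (-0.21, SE 0.0462, limma adjusted p = 0.00717), which lost its call once each library was centred on its median (-0.14). The serum, the plating density and the share of reads counted on genes differed together between both experiments and cannot be told apart.

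**Figure D3:**
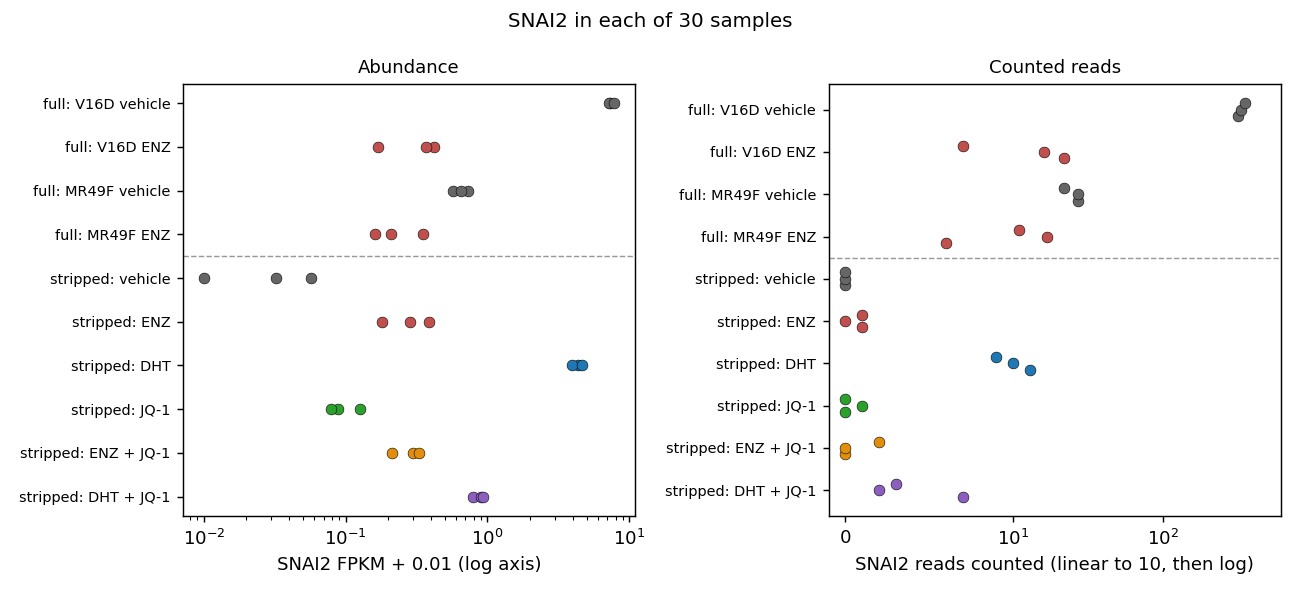
SNAI2 in each of the 30 libraries by group, with FPKM plus a small constant on a log axis at the left and reads counted on the gene at the right, on an axis linear to 10 and then logarithmic; each point is 1 library. The V16D vehicle and CSS DHT libraries stand highest by FPKM, at 7.19 to 7.86 and 3.95 to 4.61. In the count tables the DHT group holds 9 to 13 reads per library.

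CDH1 fell with DHT in CSS. It was at 84.2, 89.1 and 89.6 FPKM with vehicle, at 80.2, 80.3 and 80 FPKM with enzalutamide and at 64.2, 65.1 and 63.6 FPKM with DHT, and the 3 groups did not overlap. By counts the DHT change was -0.27 (edgeR adjusted p = 0.022) and by FPKM -0.45 (limma adjusted p = 1.75e-05). The count call was lost without DHT replicate 3 (-0.19, edgeR adjusted p = 0.136) or vehicle replicate 2 (-0.24, edgeR adjusted p = 0.0821), and with DESeq2 (adjusted p = 0.101). The smaller enzalutamide difference passed by FPKM (-0.13, limma adjusted p = 0.0359) and not by counts (-0.07), and it was lost in 5 of 6 fits that left out a library, all but the one without vehicle replicate 1 (limma adjusted p of 0.0668 to 0.113).

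TWIST1 also fell with DHT. It was at 0.685, 0.8 and 0.92 FPKM with vehicle and at 0.298, 0.334 and 0.537 FPKM with DHT, with no overlap (-0.90 on the log2(FPKM + 0.1) scale, limma adjusted p = 0.00452). With enzalutamide it was at 0.779, 0.495 and 0.769 FPKM, which overlapped the vehicle group. ZEB1 was at 0.165, 0.0802 and 0.127 FPKM with vehicle and at 0.0466, 0.0218 and 0.0341 FPKM with DHT, and CDH2 was at 0.101, 0.129 and 0.0804 FPKM and listed at 0 in all 3 DHT libraries. Neither met the FPKM minimum for this test. With no filter on low values both were lower with DHT, ZEB1 by -0.73 (limma adjusted p = 0.0102) and CDH2 by -1.02 (limma adjusted p = 0.000404). VIM was at 0.158, 0.232 and 0.203 FPKM with DHT and at 0.218, 0.104 and 0.169 FPKM with enzalutamide, within the range of vehicle or overlapping it.

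EPCAM and ESRP1 changed little with DHT or enzalutamide. EPCAM was at 61.5, 64.9 and 63.8 FPKM with vehicle and at 66.6, 67.5 and 67.8 FPKM with DHT, just apart. It passed by counts (0.28, edgeR adjusted p = 0.0456) and not by FPKM (0.09, limma adjusted p = 0.0583). The count call was lost without any of the 6 libraries except DHT replicate 2 (edgeR adjusted p of 0.0641 to 0.161), and with DESeq2 (adjusted p = 0.166). ESRP1 was at 15.3, 16.1 and 15.6 FPKM with vehicle and at 16.6, 15.5 and 15.8 FPKM with DHT, with overlap. With enzalutamide it was at 17.3, 17.8 and 17.3 FPKM, above both (0.16 against vehicle by FPKM, limma adjusted p = 0.0206), and by counts it did not pass (edgeR adjusted p = 0.373). The FPKM call was lost without vehicle replicate 1 (adjusted p = 0.0791), vehicle replicate 3 (adjusted p = 0.053) or enzalutamide replicate 2 (adjusted p = 0.0822), by limma.

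By counts, only CDH1, EPCAM and ESRP1 had enough reads for a test in CSS, and DHT called 2 of the 3 against 37.5% of all genes. By FPKM, DHT called 3 of 7 members against 67.6% of all genes, and enzalutamide 3 of 7 against 32.6%. SNAI2, counted in both, met the FPKM minimum only through the treated libraries. DHT against enzalutamide called 4 of 7 against 53.3%, SNAI2, CDH1 (-0.32, limma adjusted p = 0.000104), TWIST1 (-0.68, limma adjusted p = 0.0348) and ESRP1 (-0.13, limma adjusted p = 0.0377), of which the last 2 were lost in most fits that left out a library. For enzalutamide against vehicle, edgeR on counts called 0 of the 3 (7.26% of all genes), with 0 at an unadjusted p under 0.05 and 0 by DESeq2. For DHT against enzalutamide edgeR called 0 of the 3 (19.4% of all genes), with 1 at an unadjusted p under 0.05, while DESeq2 called SNAI2. These comparisons share their vehicle or enzalutamide libraries.

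The FPKM scale itself moved with some treatments. With DHT, the median log2 change of all genes by FPKM was -0.14 against vehicle and -0.11 against enzalutamide. With JQ-1 it was -0.10 against vehicle, -0.11 on enzalutamide and -0.07 on DHT, while by counts it lay close to 0 in each. Of the genes called with DHT against vehicle, 36.9% were higher by FPKM and 51.8% by counts, and against enzalutamide 33.7% and 53.0%. After centring on the median, CDH1 was lower by -0.32 with DHT against vehicle (limma adjusted p = 0.000133), TWIST1 stayed called (-0.77), and EPCAM (0.22) and ESRP1 (0.16) were called as higher. For DHT against enzalutamide, centring removed the calls of ESRP1 (limma adjusted p = 0.934) and TWIST1 (limma adjusted p = 0.0741). There CDH1 stayed called (-0.19, limma adjusted p = 0.00189), and EPCAM was called as higher (0.13, limma adjusted p = 0.0311). The JQ-1 calls of the members by FPKM were the same in number after centring.

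By FPKM, JQ-1 raised CDH1, VIM and ZEB1 and lowered EPCAM, ESRP1 and SNAI1, each of them with vehicle, with enzalutamide and with DHT as the background (ZEB1 on the last 2 tested with no filter on low values). CDH1 was at 122, 124 and 126 FPKM with JQ-1 against 84.2 to 89.6 FPKM with vehicle, at 115, 118 and 116 FPKM with enzalutamide and JQ-1, and at 98.7, 103 and 107 FPKM with DHT and JQ-1. All 9 libraries with JQ-1 lay above all 9 without it. The log2 change of the counts was 0.72 (edgeR adjusted p = 9.14e-12) against vehicle, 0.60 (edgeR adjusted p = 1.07e-06) on enzalutamide and 0.74 (edgeR adjusted p = 1.09e-09) on DHT.

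ESRP1 moved the opposite way to CDH1. It was at 7.02, 6.73 and 7.2 FPKM with JQ-1, 2.24-fold under vehicle by the ratio of the means. It was at 9.17, 9.15 and 8.74 FPKM with enzalutamide and JQ-1, and at 7.57, 7.51 and 7.41 FPKM with DHT and JQ-1. No library with JQ-1 reached 10 FPKM and no CSS library without it was under 15 FPKM. The log2 change of the counts was -0.90 (edgeR adjusted p = 4.84e-05), -0.84 (edgeR adjusted p = 0.000207) and -0.94 (edgeR adjusted p = 0.000159) on vehicle, enzalutamide and DHT.

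EPCAM fell by less. It was at 47.3, 50.4 and 49.5 FPKM with JQ-1, against 61.5 to 64.9 FPKM with vehicle. With enzalutamide it went from 66, 64.2 and 70.8 to 52.8, 51.3 and 50.8 FPKM with JQ-1, and with DHT to 45.5, 46.7 and 49.4 FPKM. The JQ-1 libraries lay under the others throughout. By counts EPCAM fell on vehicle (-0.30, edgeR adjusted p = 0.0231) and on DHT (-0.47, edgeR adjusted p = 0.000321). The call on vehicle was lost without JQ-1 replicate 1 (-0.22, edgeR adjusted p = 0.15), vehicle replicate 1 (-0.27, edgeR adjusted p = 0.0805) or vehicle replicate 2 (-0.29, edgeR adjusted p = 0.0549), and with DESeq2 (adjusted p = 0.195). On enzalutamide EPCAM passed only by FPKM (-0.37, limma adjusted p = 9.35e-05), not by counts (-0.16, edgeR adjusted p = 0.308).

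Of the factors, SNAI1 fell with JQ-1. It was at 0.666, 0.839 and 1.09 FPKM with vehicle and at 0.247, 0.268 and 0.609 FPKM with JQ-1 (-1.08 on the log2(FPKM + 0.1) scale, limma adjusted p = 0.0109). On DHT it went from 0.841, 0.868 and 0.85 to 0.262, 0.284 and 0.239 FPKM (-1.40, limma adjusted p = 1.85e-05), and on enzalutamide from 1.29, 0.936 and 1.06 to 0.569, 0.223 and 0.435 FPKM (-1.29, limma adjusted p = 0.00232). None of the 3 pairs of groups overlapped, and each CSS library held 0 to 2 SNAI1 reads by counts.

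JQ-1 lowered SNAI2 in the presence of DHT. SNAI2 was at 0.784, 0.894 and 0.919 FPKM with DHT and JQ-1, 4.96-fold under DHT by the ratio of the means and above every library with JQ-1 but no DHT. The change on DHT was -2.19 on the log2(FPKM + 0.1) scale (limma adjusted p = 4.59e-07), with 7, 2 and 3 reads against 13, 10 and 9. With enzalutamide and JQ-1 it was at 0.288, 0.201 and 0.318 FPKM, within the range of enzalutamide alone (0.00, limma adjusted p = 0.991). With JQ-1 by itself SNAI2 was at 0.0779, 0.117 and 0.0685 FPKM, above the vehicle libraries at 0, 0.0472 and 0.022 FPKM. Both groups lay near the floor, with 1 read against 0, and SNAI2 did not meet the FPKM minimum for that comparison.

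TWIST1 with JQ-1 did not pass the test on any background, except against vehicle without JQ-1 replicate 2 (0.47, limma adjusted p = 0.0333). It was at 1.04, 0.794 and 1.25 FPKM with JQ-1 (0.31, limma adjusted p = 0.144), at 0.71, 1.01 and 0.894 FPKM with enzalutamide and JQ-1, and at 0.377, 0.554 and 0.523 FPKM with DHT and JQ-1. Each group overlapped the matching group without JQ-1.

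VIM and ZEB1 rose from low levels. VIM was at 0.278, 0.233 and 0.109 FPKM with vehicle and at 0.595, 0.692 and 0.563 FPKM with JQ-1 (1.27 on the log2(FPKM + 0.1) scale, limma adjusted p = 0.00155). It rose by 1.59 on enzalutamide (limma adjusted p = 0.000158) and by 1.24 on DHT (limma adjusted p = 0.000307). The 9 JQ-1 libraries were at 0.529 to 0.757 FPKM, above all other CSS libraries and below the V16D group means of 0.942 and 1.12 FPKM. VIM shares 24.6% of its exon length with annotated opposite-strand exons, among them VIM-AS1, and how strand was handled in the deposited FPKM is not given in the sources used here.

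ZEB1, a zinc finger repressor of CDH1, was at 0.383, 0.382 and 0.292 FPKM with JQ-1, 2.83-fold over vehicle by the ratio of the means (1.02, limma adjusted p = 0.00239). It was at 0.283, 0.324 and 0.291 FPKM with enzalutamide and JQ-1 (1.17, limma adjusted p = 0.000204 with no filter) and at 0.15, 0.154 and 0.17 FPKM with DHT and JQ-1 (0.95, limma adjusted p = 0.000392 with no filter). Each JQ-1 group stood above its match without JQ-1. The ZEB1 reads were 11, 8 and 7 with JQ-1 alone. On enzalutamide and on DHT it met the FPKM minimum only through the JQ-1 libraries, so those tests were run with no filter on low values.

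VIM and ZEB1 were the 2 members called as higher with JQ-1 on every background from under 0.3 FPKM. The 250 bases upstream of their RefSeq start (GRCh38.p14) are shown. They were searched on both strands for the E-box bound by SNAI and ZEB factors, CACCTG or CAGGTG, which are each other's reverse complement, and matches are in capitals. A match was found in the ZEB1 window, starting 57 bases before the first of 7 listed starts, and not in the VIM window, and 17.5% of 35116 such windows hold one.
VIM, chr10:17227991-17228240, plus strand: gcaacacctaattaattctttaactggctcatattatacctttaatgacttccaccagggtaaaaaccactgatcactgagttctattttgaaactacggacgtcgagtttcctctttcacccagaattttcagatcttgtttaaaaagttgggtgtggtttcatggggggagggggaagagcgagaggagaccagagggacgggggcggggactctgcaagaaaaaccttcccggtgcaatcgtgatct
ZEB1, chr10:31318167-31318416, plus strand: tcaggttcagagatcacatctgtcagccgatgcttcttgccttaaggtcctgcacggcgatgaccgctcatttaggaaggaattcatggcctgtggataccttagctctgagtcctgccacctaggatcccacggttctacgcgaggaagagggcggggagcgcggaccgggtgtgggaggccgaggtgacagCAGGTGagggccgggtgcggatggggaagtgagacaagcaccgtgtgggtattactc

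By counts, JQ-1 called 3 of 3 tested members against vehicle, 2 of 3 on enzalutamide and 3 of 3 on DHT, against 46.6%, 45.1% and 54.7% of all genes. By FPKM it called 6 of 8, 6 of 8 and 7 of 8, against 69.9%, 69.9% and 73.0% of all genes, with ZEB1 in the last 2 counts through its JQ-1 libraries only. KLK3 fell with JQ-1 from 283 ± 6.14 to 7.01 ± 0.579 FPKM (SD, n = 3).

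Whether JQ-1 acted differently with DHT or enzalutamide was tested as an interaction. For SNAI2 the DHT interaction was -2.80 on the log2(FPKM + 0.1) scale (limma adjusted p = 7.18e-06 with no filter on low values). SNAI2 met the FPKM minimum through the libraries with DHT, and JQ-1 replicate 2 (0.117 FPKM) was the only other library to reach 0.1 FPKM. The DHT interaction was 0.18 for CDH1 (limma adjusted p = 0.014) and -0.14 for EPCAM (limma adjusted p = 0.0466). With SNAI2 counted, 3 of 9 tested members were called against 40.9% of all genes. With enzalutamide only ESRP1 was called of 9 (0.21, limma adjusted p = 0.0298), against 14.3% of all genes, and that call was lost in 8 of 12 fits that left out a library (limma adjusted p up to 0.0728). The EPCAM interaction with DHT was lost in 9 of them (limma adjusted p up to 0.111). By counts, edgeR called 0 of 3 members in both interactions, with 0 at an unadjusted p under 0.05 and 0 by DESeq2, against 12.3% of all genes for DHT and 0.895% for enzalutamide.

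**Figure D4:**
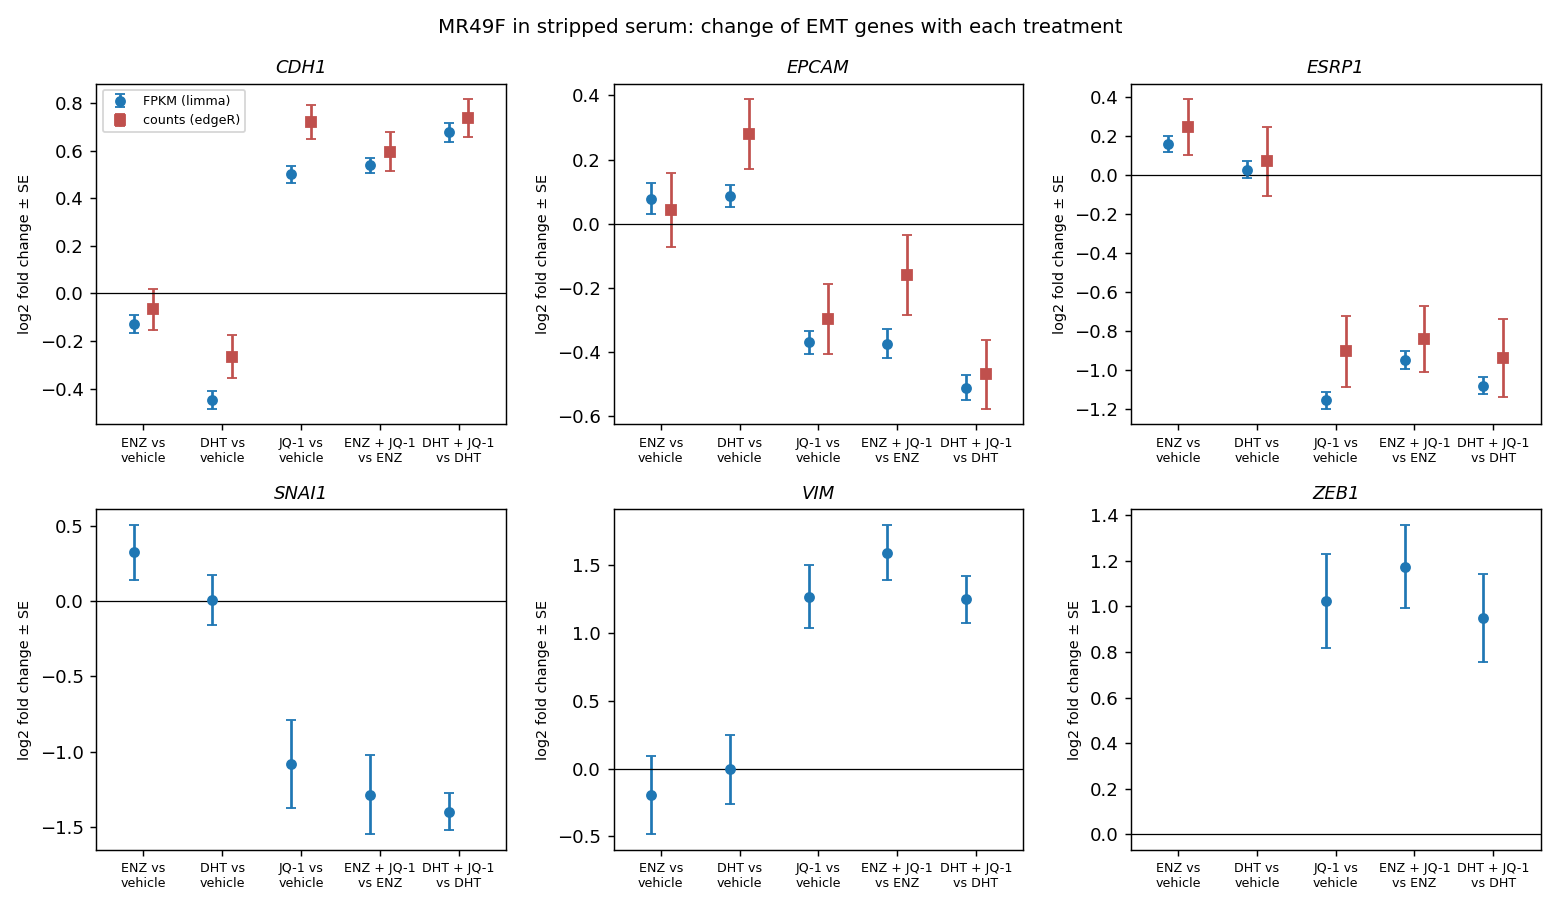
Log2 fold change with its SE (y axis) of 6 genes in MR49F cells in stripped serum for 5 comparisons on the x axis, from FPKM (blue circles, limma) and from counts (red squares, edgeR, drawn where the gene could be tested). With JQ-1, CDH1, VIM and ZEB1 lie above 0 and EPCAM, ESRP1 and SNAI1 under 0 on all 3 backgrounds. ZEB1 has no value for enzalutamide or DHT against vehicle, where it did not meet the FPKM minimum.

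Genes that act beside the 10 members were counted in 4 lists, none of which holds a member: epithelial junction and identity genes (39 listed), mesenchymal and matrix genes (41), TGF-beta, BMP and SMAD genes (40), and other cadherins and catenins (30). With enzalutamide in V16D, 17 of 39 tested epithelial genes rose and 9 fell by counts (edgeR), with a list median of 0.06 against 0.00 over all genes, of which 37.5% were called. The tight junction gene OCLN rose from 8.70 ± 0.241 to 17.0 ± 0.714 FPKM (SD, n = 3), and GALNT3 from 9.37 ± 0.304 to 17.8 ± 0.217 FPKM. PMEPA1, a TGF-beta and androgen target that restrains SMAD signalling, fell from 37.2 ± 1.48 to 7.26 ± 0.215 FPKM. The mesenchymal and matrix list also moved up in this comparison. Of 19 tested genes 9 rose and 4 fell by counts (edgeR), with a list median of 0.19.

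Between the lines, FN1, which encodes the matrix protein fibronectin, was at 81.4 ± 1.11 FPKM in MR49F and at 6.15 ± 0.146 FPKM in V16D, the reverse of the order for VIM and SNAI2. Of 20 tested mesenchymal and matrix genes 8 were higher and 4 lower in MR49F by counts (list median 0.33), and of 39 epithelial genes 22 were higher and 7 lower (list median 0.36), against a median of 0.00 over all genes, of which 63.7% were called. The other cadherins and catenins were split, with 6 higher and 6 lower of 18 tested by counts (list median -0.07). Among the lower ones was the desmosomal cadherin gene DSC2 (-1.57 on the log2 scale, SE 0.0482, edgeR adjusted p = 1.73e-10).

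With DHT in CSS, 15 of 21 tested mesenchymal and matrix genes fell and 4 rose by FPKM (limma; list median -0.96, against -0.14 over all genes), and 24 of 36 TGF-beta genes fell and 6 rose (-0.55). Over all genes 67.6% were called by FPKM, with 36.9% of the called genes higher. By counts the same lists gave 7 lower and 3 higher of 14, and 10 lower and 3 higher of 28 (edgeR), with medians of -0.67 and -0.38 against -0.01 over all genes, of which 37.5% were called. FN1 fell from 61.3 ± 0.835 to 16.8 ± 1.01 FPKM, while LOX, a collagen cross-linking enzyme, rose from 0.166 ± 0.0535 to 1.23 ± 0.0985 FPKM. The epithelial list was split with DHT. By FPKM 13 of 38 tested genes rose and 19 fell (list median -0.06), and by counts 10 of 36 rose and 10 fell (-0.03). From this list OCLN fell from 37.7 ± 0.356 to 9.53 ± 0.216 FPKM. PMEPA1 rose from 19.0 ± 0.815 to 181 ± 3.86 FPKM.

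With JQ-1, 21 of 38 tested epithelial genes fell and 11 rose by FPKM (limma; list median -0.35, against -0.10 over all genes, of which 69.9% were called). By counts (edgeR), 16 of 36 fell and 8 rose, with a median of -0.14, and of 14 mesenchymal and matrix genes 5 fell and 2 rose (-0.41), against 46.6% of all genes called. Among those that fell were TJP1, a tight junction scaffold, from 130 ± 3.03 to 38.5 ± 1.07 FPKM, CLDN7, a claudin, from 76.7 ± 2.96 to 23.6 ± 0.597 FPKM, and EHF, an epithelial transcription factor, from 81.0 ± 1.68 to 18.9 ± 0.742 FPKM. Of 22 mesenchymal and matrix genes 11 fell and 3 rose (list median -0.41), and CALD1, an actin-binding protein, went from 176 ± 7.09 to 27.8 ± 0.186 FPKM. Of 18 cadherins and catenins 10 rose and 6 fell (0.29). The fibroblast marker genes summed to at most 2.69 FPKM in any group. The 4 endothelial and leukocyte markers summed to 0.547 to 0.797 FPKM in FS and to at most 0.0341 FPKM in CSS, a difference that was not tested. Of these, CDH5 was listed at 0 in all groups.

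The genes whose pattern over the 10 group means was most like a member's were named by Pearson's r of log2 levels among 13706 genes, as a description of groups that share libraries. SNAI2 was followed most closely by ORC5 (r = 0.962), a subunit of the origin recognition complex, and SOCS2 (r = 0.953), a suppressor of cytokine signalling, was among the 3 nearest. SOCS2 was at 7.003 FPKM in V16D vehicle, 7.54 FPKM with DHT and 0.883 FPKM with vehicle in CSS. CDH1 was nearest to C14orf101 and HPR (r = 0.996 for both), EPCAM to ZZZ3 (0.988) and ESRP1 to NAALADL2 (0.992).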

How the data were processed

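RNA was sequenced as single-end 50-base reads from strand-specific poly(A) libraries (Agilent SureSelect). The authors aligned reads to hg19 with TopHat2 2.0.9 and deposited counts per gene, made with HTSeq, and FPKM per RefSeq transcript, made with Cufflinks 2.1.1. Whether counting used strand is not given in the sources used here. FPKM were summed to genes. The members and gene lists were chosen with earlier results of these data known.

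Counts were tested with edgeR 4.0.16 (R 4.3.3; filterByExpr, TMM, quasi-likelihood), fitting only the groups compared, and FPKM with limma 3.58.1 on log2(FPKM + 0.1) for genes at 0.1 FPKM or more in at least 3 samples. A gene was called at a Benjamini-Hochberg adjusted p of 0.05 or less over all genes tested. Up to 3 genes of each list could be named per comparison, those called with the largest absolute log2 fold change, no overlap between groups and 5 CPM or more in the higher group. The pattern measure used log2(FPKM + 0.1) centred within each serum experiment, for genes averaging 1 FPKM or more in some group. Both scripts were tested on simulated data. Alternatives were DESeq2 1.42.0, other normalization, filters and pseudocounts, a replicate block, and leaving out each library. Promoters were read from RefSeq tables, which held 4 of the 10 members. Exon overlap was taken from GENCODE on GRCh37. Some items of the series are not reported here.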

Additional observations from a re-analysis of the deposited data

Results flagged for a closer look

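The response of SNAI2 to enzalutamide in full serum differed between the lines by 3.08 on the log2 scale of counts (SE 0.432, edgeR adjusted p = 5.77e-05), with a fall in both, and in every fit that left out a library the interaction was called. In MR49F the response differed between stripped and full serum by 2.79 for SNAI2 (limma on log2(FPKM + 0.1), adjusted p = 0.000229) and by -0.21 for CDH1 (limma adjusted p = 0.00717). For SNAI2 all 3 enzalutamide libraries lay under vehicle in full serum and all 3 lay above it in stripped serum. With edgeR on counts neither serum interaction was called. These 3 results were picked because the difference between groups itself passed a test.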

How the results depend on the processing

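No alternative reversed the direction of a result. For the single members, 312 values kept their call and 33 lost it. Called members in V16D with enzalutamide went from 4 to 2 with all groups in one fit (CDH1 and ESRP1 were lost) and to 2 with the test of the study's kind on the 50% most variable genes. In MR49F with enzalutamide, 1 became 0 with DESeq2, without the FPKM filter and with the two-group test, and 0 to 1 with a library left out. Leaving out a library gave 1 to 2 for the line interaction and 5 to 7 between the lines. In stripped serum, counts against FPKM (pseudocount 0.1, pseudocount 1, no filter) gave 0 against 3, 3 and 4 for enzalutamide, 0 against 4, 4 and 4 for DHT over enzalutamide, 3 against 6, 6 and 7 for JQ-1, 2 against 6, 6 and 6 on enzalutamide, 3 against 7, 7 and 7 on DHT, 0 against 1, 1 and 1 for the enzalutamide and JQ-1 interaction, and 0 against 3, 3 and 2 for that of DHT. For DHT, 2 by counts became 5 by FPKM without the filter, which let ZEB1 and CDH2 be called. The same 2 became 1 with DESeq2, where SNAI2 was called and CDH1 and EPCAM were lost, and 1 with the replicate block. For DHT by FPKM, 3 became 5 without the filter and 5 after median-centring. For DHT over enzalutamide, 0 by counts became 1 without the filter, 1 with DESeq2 and 1 with the two-group test. On DHT, 3 with JQ-1 became 5 without the count filter. With a library left out, the counts were 1 to 2 for DHT, 0 to 1 for DHT over enzalutamide, 2 to 3 for JQ-1 and 3 to 4 for JQ-1 on DHT. By FPKM they were 0 to 2 for enzalutamide (0 without enzalutamide replicate 2), 2 to 3 for DHT, 2 to 4 for DHT over enzalutamide, 6 to 7 for JQ-1, 5 to 6 and 6 to 7 on enzalutamide and DHT, and 0 to 1 and 2 to 3 for the enzalutamide and DHT interactions. The 2 members called in the serum interaction became 0 with edgeR on counts and 1 after median-centring. The cause was not tested.

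Same-numbered libraries deviated together little (mean r of -0.0142 in V16D, 0.043 in MR49F full serum and 0.021 in stripped serum, with 5 of 45 pairs over 0.1), so the numbers were not taken as pairs. With the replicate block, called members went from 4 to 3 in V16D with enzalutamide and from 2 to 1 for DHT by counts, and by FPKM from 3 to 2 for enzalutamide, from 4 to 3 for DHT over enzalutamide and from 1 to 0 for the enzalutamide and JQ-1 interaction. Settings that use FPKM or median-centring with a block or a left-out library were chosen after seeing the data. At 982130 to 1813262 reads on genes, 7 of the 10 members were too low for a count test in stripped serum.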

Other observations

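The levels of ESRP1 and CDH1 ordered the 10 groups differently. CDH1 was highest with JQ-1 in stripped serum (124 FPKM) and lowest in MR49F vehicle in full serum (59.3 FPKM), whereas ESRP1 was lowest with JQ-1 (6.98 FPKM) and highest in V16D with enzalutamide (28.1 FPKM). For CDH1, the only neighbours in that order whose libraries overlapped were V16D with enzalutamide and MR49F with enzalutamide and JQ-1 (117 and 116 FPKM). For VIM, neighbours overlapped throughout except between DHT with JQ-1 (0.606 FPKM) and MR49F vehicle in full serum (0.219 FPKM).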
